A study of Homo sapiens with 12 samples.

Results

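The RBFOX family consists of 3 genes in humans, RBFOX1, RBFOX2 and RBFOX3, and all 3 were followed here as they are transcribed and spliced from their own loci in HEK293T, a line of transformed cells from human embryonic kidney. The members were chosen by name. They are 3 of the 62710 genes in the count table, and 146 of the 721551 entries of the splicing table carry their names, which come to 113 distinct events (41 for RBFOX1, 52 for RBFOX2 and 20 for RBFOX3). The question was how much of each gene the cells transcribe, how those transcripts are spliced, and whether the exons of RBFOX2 respond to an effector built from RBFOX1.

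The 12 polyA RNA-seq libraries form 6 groups of 2 replicates, which the design text calls biological. Cells were given 200 ng of the vector for an effector with 200 ng of that for a guide RNA, and RNA was taken after 48 h. RBFOX1N_NT and RBFOX1N_MAPT carried RBFOX1N-dCasRx-C with a nontargeting guide or a guide for activation of MAPT exon 10; RBM25_NT, RBM25_MAPT and RBM25_CD46 carried dCasRx-RBM25 with the nontargeting guide, the MAPT guide or a guide for repression of CD46 exon 13; dCasRx_NT carried dCasRx, the catalytically dead RNA-targeting protein, with the nontargeting guide. All 6 groups therefore received vectors for a form of dCasRx and a guide, whose expression was not measured here, and no untransfected cells were analysed here. In the published form of the RBFOX1 effector, dCasRx stands in place of the RNA-binding domain of RBFOX1, so the effector keeps the flanking parts of the protein and takes its RNA target from the guide.

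RBFOX proteins bind the RNA words UGCAUG and GCAUG through a single RNA recognition motif (RRM). Bound downstream of an exon they usually favour its inclusion, and bound upstream or within it they usually favour skipping. RBFOX1 is known from neurons, heart and skeletal muscle, RBFOX2 is broadly expressed, and RBFOX3 is the antigen of the neuronal marker NeuN. The family also acts on its own transcripts: an exon inside the RRM is skipped when RBFOX activity is high, and the shorter protein binds RNA poorly. A pair of short exons near the 3′ end of the coding sequence is chosen by tissue in RBFOX1, the 40 nt exon in brain and the 43 nt exon in muscle.

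The exons on which the results turn are printed from GENCODE release 29 (GRCh38), 5′ to 3′ on the transcribed strand, because the splicing values refer to them. The first set is the 93 nt RRM exon, at chr22:35768257-35768349 (minus strand) in RBFOX2, chr16:7595549-7595641 (plus strand) in RBFOX1 and chr17:79103162-79103254 (minus strand) in RBFOX3. It is coding in each gene, its length is a multiple of 3, and 10 of the 14 annotated RBFOX2 transcripts hold it. Capitals mark bases that differ from RBFOX2.
RBFOX2 93 nt RRM exon: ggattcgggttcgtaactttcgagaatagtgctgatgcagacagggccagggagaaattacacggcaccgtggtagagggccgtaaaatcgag
RBFOX1 93 nt RRM exon: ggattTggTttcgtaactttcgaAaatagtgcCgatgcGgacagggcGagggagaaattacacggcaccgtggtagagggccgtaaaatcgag
RBFOX3 93 nt RRM exon: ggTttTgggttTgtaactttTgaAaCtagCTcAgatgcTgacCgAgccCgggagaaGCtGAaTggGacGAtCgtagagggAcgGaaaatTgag
The RBFOX1 exon differs from that of RBFOX2 at 6 bases (93.5% identity) and the RBFOX3 exon at 25 bases (73.1% identity). For reads that match more than 1 of the genes, the treatment, not given in the sources used here, could move counts between them.

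The second set is the 40 nt exon, at chr22:35756105-35756144 (minus strand) in RBFOX2, chr16:7664929-7664968 (plus strand) in RBFOX1 and chr17:79096653-79096692 (minus strand) in RBFOX3, with the 43 nt exon of RBFOX2 (chr22:35752613-35752655, minus strand) and of RBFOX1 (chr16:7671557-7671599, plus strand). The annotation gives a coding form of each, although the RBFOX3 exon is coding throughout in 3 of the 5 transcripts that hold it, and neither length is a multiple of 3. Capitals again mark differences from RBFOX2.
RBFOX2 40 nt exon: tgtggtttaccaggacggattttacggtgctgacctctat
RBFOX1 40 nt exon: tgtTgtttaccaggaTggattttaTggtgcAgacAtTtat
RBFOX3 40 nt exon: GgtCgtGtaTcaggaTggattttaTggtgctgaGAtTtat
RBFOX2 43 nt exon: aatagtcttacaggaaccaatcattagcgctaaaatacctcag
RBFOX1 43 nt exon: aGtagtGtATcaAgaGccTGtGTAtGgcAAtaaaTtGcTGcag
The 40 nt exons of RBFOX1 and RBFOX3 differ from that of RBFOX2 at 6 and 9 bases, and the 43 nt exon of RBFOX1 at 18.

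The third set holds the RBFOX2 exons with 2 alternative 3′ splice sites, all on the minus strand: the 147 nt exon (chr22:35781600-35781746), the 54 nt exon (chr22:35778025-35778078) and the first 42 bases of the 145 nt exon (chr22:35759888-35760032). Capitals at the 5′ end mark the bases that are present or absent depending on the site used.
RBFOX2 147 nt exon: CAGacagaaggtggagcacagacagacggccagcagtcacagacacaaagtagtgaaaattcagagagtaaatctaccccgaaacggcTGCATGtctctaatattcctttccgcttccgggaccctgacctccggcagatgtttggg
RBFOX2 54 nt exon: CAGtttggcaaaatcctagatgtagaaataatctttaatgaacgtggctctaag
RBFOX2 145 nt exon, first 42 bases: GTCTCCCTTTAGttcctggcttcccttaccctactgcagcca
The further capitals in the 147 nt exon mark TGCATG, the DNA form of the RBFOX word, at position 89 counted from the exon's 5′ end, and GCATG lies within it. Among the 1253 annotated internal exons of 147 nt, 33 (2.63%) hold TGCATG. Neither TGCATG nor GCATG, nor the reverse complement CATGCA, was found in the other exons printed above; 1.99% of 1554 internal exons of 93 nt and 0.763% of 262 internal exons of 40 nt hold TGCATG. A match is a description of the letters and not a bound site, and the introns, where most RBFOX sites lie, were not searched.

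Libraries held 32487927 to 53985468 counts each. The 2 replicates of every group differed beyond sampling noise (chi-square per gene from 6.49 in RBM25_CD46 to 36.3 in RBM25_MAPT). Markers of the line were present in every library, with VIM at 646 to 863 CPM (counts scaled to TMM-normalized library size) and all 7 of 7 detected. Of 10 markers of blood, liver, fibroblasts and endothelium, 5 were too low to be tested, among them PTPRC at 0 to 0.0479 CPM, and the highest was COL1A1 at 20.3 to 34.4 CPM. The 6 neuronal markers, RBFOX3 among them, lay between 0.261 and 16.1 CPM.

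RBFOX2 (ENSG00000100320, chr22:35738736-36028425, minus strand) was the only member at a substantial level, with 5475 to 9750 counts per library. Per kilobase of annotated exon sequence, RBFOX2 lay at 14.9 to 20.1 RPKM over the 12 libraries (median 16.5). RBFOX3 (ENSG00000167281, chr17:79089345-79516148, minus strand) lay at 0.231 to 0.445 RPKM. The ratio of the RBFOX2 level to the RBFOX3 level on this scale was 45.3 to 70.3, with a median of 54.9. RBFOX1 (ENSG00000078328, chr16:5239802-7713338, plus strand) had 0 to 6 counts, or at most 0.0135 RPKM, of which a count of 3 would be 0.00867 RPKM in the shallowest library. RBFOX1 had 2 and 2 counts in RBFOX1N_NT, 2 and 0 in RBFOX1N_MAPT, 4 and 2 in RBM25_NT, 6 and 5 in RBM25_MAPT, 1 and 4 in RBM25_CD46, and 2 and 4 in dCasRx_NT. The 4 libraries with the RBFOX1N effector thus held no more RBFOX1 counts than the others, and RBFOX1 was too low to be tested.

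RBFOX2 was higher in each library with the RBM25 effector than in any other library. Its level was 161 and 156 CPM in RBFOX1N_NT, 149 and 158 CPM in RBFOX1N_MAPT, 170 and 187 CPM in RBM25_NT, 202 and 201 CPM in RBM25_MAPT, 186 and 192 CPM in RBM25_CD46, and 159 and 155 CPM in dCasRx_NT. The 6 RBM25 libraries spanned 170 to 202 CPM and the 6 others 149 to 161 CPM, so the ranges did not overlap. Of all 20593 tested genes, 6.37% were likewise higher in every RBM25 library than in any other, and 11.7% were separated in either direction. From high to low, the group means were 201 ± 0.221 CPM in RBM25_MAPT, 189 ± 4.22 in RBM25_CD46, 178 ± 12.6 in RBM25_NT, 159 ± 3.83 in RBFOX1N_NT, 157 ± 3.50 in dCasRx_NT and 154 ± 6.65 in RBFOX1N_MAPT (SD, n = 2 each). The neighbours RBM25_CD46 and RBM25_NT overlapped, as did RBFOX1N_NT, dCasRx_NT and RBFOX1N_MAPT. In bulk RNA, fewer cells with a transcript and less of it per cell cannot be told apart.

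**Figure D1:**
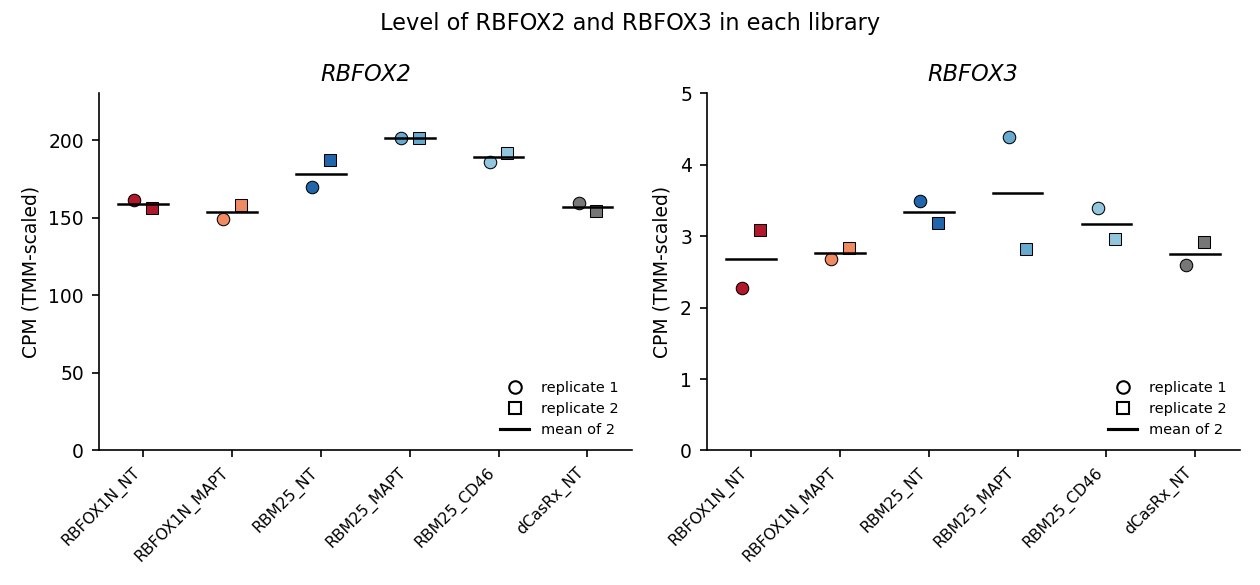
Levels of RBFOX2 (left) and RBFOX3 (right) in CPM by library, for the 6 groups in the order RBFOX1N_NT, RBFOX1N_MAPT, RBM25_NT, RBM25_MAPT, RBM25_CD46, dCasRx_NT; circles are replicate 1, squares replicate 2, lines the mean of 2, and each gene has its own axis. RBFOX2 lies at 170 to 202 CPM in the 6 RBM25 libraries and at 149 to 161 CPM in the 6 others, while RBFOX3 stays between 2.28 and 4.39 CPM; RBFOX1, not drawn, was at or below 0.136 CPM.

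The RBFOX1N effector was first set against dCasRx alone, both with the nontargeting guide. RBFOX2 averaged 159 CPM in RBFOX1N_NT and 157 CPM in dCasRx_NT, a log2 fold change of 0.02 (SE 0.08, 95% interval -0.15 to 0.19, adjusted p = 0.922, edgeR quasi-likelihood test with Benjamini-Hochberg adjustment over 20593 genes). No member was called in this comparison, where 10.8% of all genes tested were called at an adjusted p under 0.05. RBFOX3 averaged 2.68 CPM in RBFOX1N_NT and 2.76 CPM in dCasRx_NT (log2 fold change -0.03, SE 0.23, adjusted p = 0.947).

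The RBM25 effector was set against dCasRx in the same way. RBFOX2 averaged 178 CPM in RBM25_NT and 157 CPM in dCasRx_NT, a log2 fold change of 0.18 (95% interval 0.01 to 0.36) whose unadjusted p of 0.0352 became 0.169 after adjustment with edgeR, so it was not called; 7.62% of all genes were. RBFOX1N_NT against RBM25_NT gave -0.17 (95% interval -0.34 to 0.0012, adjusted p = 0.162, edgeR), where 16.7% of genes were called. These 3 comparisons share libraries.

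RBFOX2 was called only between the effectors with the MAPT guide. It averaged 154 CPM in RBFOX1N_MAPT and 201 CPM in RBM25_MAPT, a log2 fold change of -0.39 (SE 0.08, 95% interval -0.56 to -0.22; fold 0.763; adjusted p = 0.00382, edgeR), lower in RBFOX1N_MAPT. In this comparison 10.6% of all genes were called lower and 22.6% in either direction, so a call was common. It shares no library with the 3 comparisons under the nontargeting guide. Without RBFOX1N_MAPT replicate 1 the fold change was -0.33 and the call was lost (adjusted p = 0.0776, edgeR). RBFOX3 averaged 2.76 CPM in RBFOX1N_MAPT and 3.61 CPM in RBM25_MAPT (log2 fold change -0.39, SE 0.22, adjusted p = 0.224, edgeR); without RBM25_MAPT replicate 2, its lower library, the value was -0.67 and passed (adjusted p = 0.0471).

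The guide made no called difference to RBFOX2 or RBFOX3. RBFOX2 gave log2 fold changes of -0.05 for RBFOX1N_MAPT against RBFOX1N_NT (unadjusted p = 0.565), 0.17 for RBM25_MAPT against RBM25_NT (unadjusted p = 0.0448, adjusted p = 0.868, edgeR) and 0.08 for RBM25_CD46 against RBM25_NT (unadjusted p = 0.314). In each of the 3, 0% of all genes were called by edgeR, although 2.03%, 4.98% and 2.36% of genes in that order had an unadjusted p under 0.05; DESeq2 called 0, 5 and 3 genes, without RBFOX2. The test of whether the effectors differ by the same amount under both guides gave an interaction of -0.22 for RBFOX2 (95% interval -0.46 to 0.02, unadjusted p = 0.0686, adjusted p = 0.936, edgeR), where 0% of genes were called. The larger difference under the MAPT guide was thus not shown to differ from that under the nontargeting guide.

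The genes whose level ran most like that of RBFOX2 were sought among 17690 tested genes, as a description without a test. Over the 12 libraries the 5 highest Pearson correlations of log2 CPM belonged to SCD (0.976), a fatty acid desaturase, PLXDC2 (0.970), GOLIM4 (0.969), ITPR1 (0.965), a calcium channel of the endoplasmic reticulum, and KLHL11 (0.958). Over the 6 group means they belonged to KTN1 (0.999), ERN1 (0.997), a sensor of stress in the endoplasmic reticulum, PODXL (0.997), NAA35 (0.997) and PDE4DIP (0.996). The lists share no gene. The points share libraries and scaling, and 161 genes exceeded 0.9 over the libraries.

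Splicing was measured as the percent spliced in (PSI), the percent of informative reads that include an exon, an intron or a splice site. Of the 52 distinct RBFOX2 events, 49 had reads and 44 had at least 20 reads in each library. Of these, 9 also had at least 24 reads of the less used form over all libraries and could be tested; the other 35 were spliced almost one way. None of the 41 events of RBFOX1 or the 20 of RBFOX3 reached 20 reads in each library, so neither gene had a tested event.

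The RRM exon of RBFOX2 was included in most transcripts of every library. Its PSI was 90.7% and 97.1% in RBFOX1N_NT, 94.0% and 93.2% in RBFOX1N_MAPT, 97.3% and 94.1% in RBM25_NT, 93.6% and 93.5% in RBM25_MAPT, 93.6% and 93% in RBM25_CD46, and 97.3% and 94.8% in dCasRx_NT. The lowest library and one of the 3 highest belonged to the same group, RBFOX1N_NT, and the groups overlapped widely. Each library rested on 136 to 265 reads, which gives 95% Wilson intervals 5.17 to 8.67 points wide. These intervals cover counting error only, since reads are not independent molecules. The skipped form was thus present in each library at a few percent by this measure, and pooled over libraries inclusion was 94.2% of 2121 reads (93.1% to 95.1%). The inclusion reads were uneven: 1356 crossed the upstream junction and 669 the downstream one, against 96 reads that skipped the exon. Counted on the downstream junction alone, inclusion would be lower.

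The RRM exon did not differ detectably between effectors. Mean PSI was 93.9% in RBFOX1N_NT and 96.1% in dCasRx_NT, a difference of -2.17 points (SE 2.10, 95% interval -6.63 to 2.30, adjusted p = 0.717, quasi-binomial test with Benjamini-Hochberg adjustment over 100386 events). The sign rested on single libraries: leaving out each in turn gave -5.39 to 1.06 points. Under the MAPT guide it was 93.6% in RBFOX1N_MAPT and 93.5% in RBM25_MAPT, a difference of 0.01 points (95% interval -4.75 to 4.77, adjusted p = 1.00). Both intervals lie inside 10 points, the smallest difference that could be called, and do not show that the values are equal.

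The 40 nt exon of RBFOX2 was also mostly included and the 43 nt exon was nearly absent. The PSI of the 40 nt exon was 94.2% and 90.7% in RBFOX1N_NT, 88.7% and 90.1% in RBFOX1N_MAPT, 91.4% and 89.4% in RBM25_NT, 90.2% and 94.8% in RBM25_MAPT, 86.6% and 94.5% in RBM25_CD46, and 91.7% and 92.7% in dCasRx_NT, from 171 to 367 reads each. Both RBFOX1N_MAPT libraries lay below both RBM25_MAPT libraries and both RBFOX1N_NT libraries, while the values of RBFOX1N_NT enclosed those of dCasRx_NT. Among all tested events, 47.6% did not overlap between RBFOX1N_MAPT and RBM25_MAPT, and 32.7% between RBFOX1N_MAPT and RBFOX1N_NT. The difference was 0.26 points for RBFOX1N_NT against dCasRx_NT (95% interval -5.15 to 5.68, adjusted p = 0.982) and -3.12 points for RBFOX1N_MAPT against RBM25_MAPT (95% interval -8.28 to 2.04, adjusted p = 0.594). The 43 nt exon had a PSI of 0% to 1.76% per library and 0.620% of 1682 reads pooled, too few inclusion reads for a test. In these kidney-derived cells the RBFOX2 transcripts thus mostly carried the counterpart of the exon that RBFOX1 uses in brain, and rarely that of the one it uses in muscle.

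**Figure D2:**
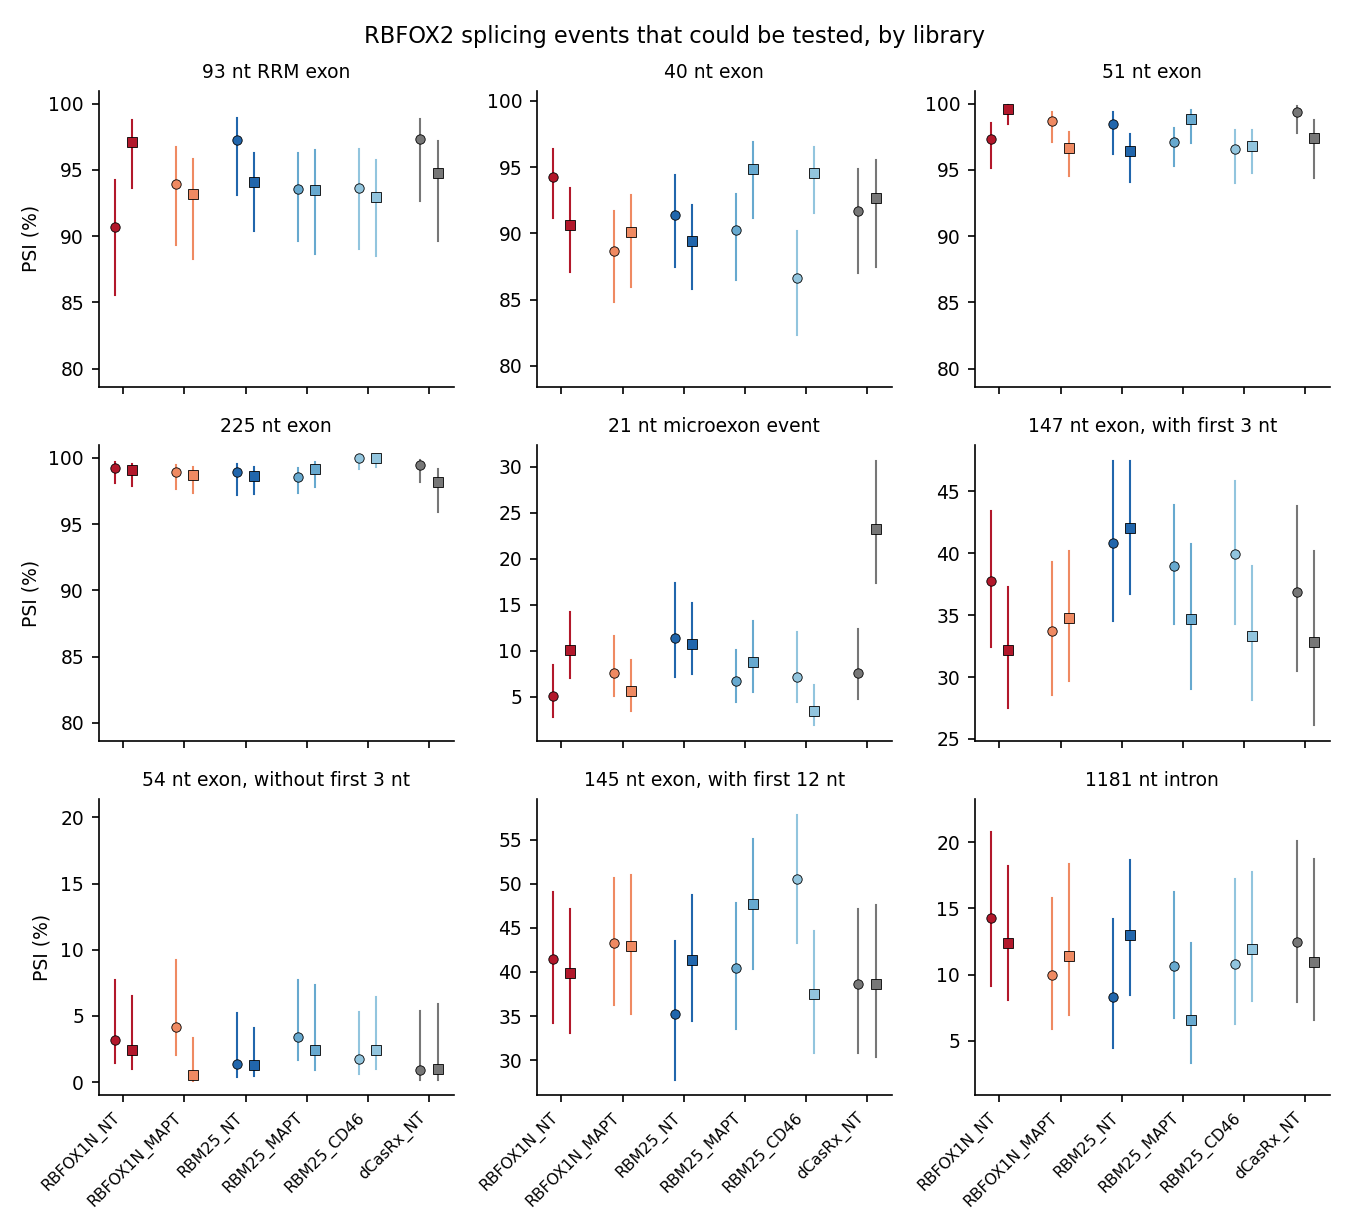
PSI in percent of the 9 tested RBFOX2 events by library, for the 6 groups; circles are replicate 1, squares replicate 2, bars are 95% Wilson intervals (counting error only), and each panel has its own range. In most panels the bars of the groups overlap; the 21 nt event of dCasRx_NT replicate 2 stands at 23.2%, above the 3.48% to 11.4% of the other libraries.

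The further cassette exons of RBFOX2 showed little variation. The 51 nt exon (chr22:35938847-35938897) was included at 96.4% to 99.6% and the 225 nt exon (chr22:35809780-35810004) at 98.2% to 100%. RBFOX1N_NT against dCasRx_NT gave 0.06 points for the 51 nt exon (95% interval -1.96 to 2.07) and 0.31 points for the 225 nt exon (95% interval -0.76 to 1.37). The only RBFOX2 event with an unadjusted p under 0.05 in any comparison was the 225 nt exon between RBM25_CD46 and RBM25_NT. It stood at 100% against 98.8%, a difference of 1.21 points (95% interval 0.39 to 2.02, unadjusted p = 0.00117, adjusted p = 0.569, quasi-binomial test). At 100% inclusion RBM25_CD46 adds no variance to this interval, so its width understates the uncertainty. Among the events too one-sided for a test, 8 cassette exons were included at 99.5% or more of pooled reads, 13 at 0.668% or less, and 9 introns were retained at 1.27% or less.

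The alternative 3′ splice sites of RBFOX2 held the intermediate values. The 147 nt exon with its first 3 nt, the form of 4 of the 14 annotated transcripts, had a PSI of 37.7% and 32.2% in RBFOX1N_NT, 33.7% and 34.7% in RBFOX1N_MAPT, 40.8% and 42% in RBM25_NT, 39.0% and 34.7% in RBM25_MAPT, 39.9% and 33.3% in RBM25_CD46, and 36.9% and 32.8% in dCasRx_NT. Both RBM25_NT libraries were above all others; in 3.28% of all tested events the RBM25_NT libraries lay apart from the rest, on either side. RBFOX1N_NT against RBM25_NT gave -6.47 points (95% interval -13.3 to 0.40, unadjusted p = 0.0520, adjusted p = 0.282), and RBFOX1N_NT against dCasRx_NT gave 0.11 points (95% interval -7.45 to 7.67). RBFOX1N_MAPT against RBM25_MAPT gave -2.62 points (95% interval -9.18 to 3.94). This is the exon that holds TGCATG.

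The 145 nt exon with its first 12 nt was used at 35.3% to 50.6% over the libraries, the rest being the 133 nt form. The group with the widest spread was RBM25_CD46, at 50.6% and 37.5%. The differences were 2.02 points for RBFOX1N_NT against dCasRx_NT (95% interval -8.37 to 12.4) and -0.92 points for RBFOX1N_MAPT against RBM25_MAPT (95% interval -10.7 to 8.85). The 54 nt exon lost its first 3 nt in 0.570% to 4.13% of reads; the values were 3.21% and 2.45% in RBFOX1N_NT and 0.922% and 1.02% in dCasRx_NT. These did not overlap, as in 42.3% of all tested events, and the difference of 1.86 points (95% interval -0.88 to 4.60) had an adjusted p of 0.578. Under the MAPT guide the same event was at 4.13% and 0.570% in RBFOX1N_MAPT and 3.43% and 2.44% in RBM25_MAPT.

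The 1181 nt intron before the 145 nt exon (chr22:35760021-35761201) was listed as retained at 6.55% to 14.3%. Its last 12 nt are the optional 12 nt of that exon. Over all libraries, 326 reads crossed its downstream boundary and 6 its upstream boundary. The listed value therefore rests almost wholly on the downstream boundary. The differences were 1.61 points for RBFOX1N_NT against dCasRx_NT (95% interval -4.88 to 8.09) and 2.11 points for RBFOX1N_MAPT against RBM25_MAPT (95% interval -3.54 to 7.75).

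The 21 nt event (chr22:35840192-35840212) had the widest spread. Its PSI was 5.13% and 10.1% in RBFOX1N_NT, 7.60% and 5.70% in RBFOX1N_MAPT, 11.4% and 10.7% in RBM25_NT, 6.74% and 8.81% in RBM25_MAPT, 7.17% and 3.48% in RBM25_CD46, and 7.65% and 23.2% in dCasRx_NT. One dCasRx_NT library stood above all others. RBFOX1N_NT against dCasRx_NT gave -7.81 points (95% interval -15.3 to -0.31, unadjusted p = 0.0651, adjusted p = 0.375, quasi-binomial test). The difference was -0.02 points without dCasRx_NT replicate 2 and -15.6 points without dCasRx_NT replicate 1 (adjusted p = 0.996 and 0.0678). No read crossed the junction into this event in any library, against 8 to 30 reads per library over the junction out of it. GENCODE has no exon with these coordinates, but 7 transcripts have a first exon of 27 to 396 nt that ends at the same site, and 0 have a later exon that does. No read thus showed the 21 nt event as an internal microexon, and whether the reads come from such a first exon was not tested.

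In the comparison of RBFOX1N_NT with dCasRx_NT, 0 of the 9 tested RBFOX2 events were called by the quasi-binomial test, against 1.14% of all 100386 tested events. The 9 are not all separate, since the 1181 nt intron includes the optional 12 nt of the 145 nt exon. None of the 9 had an unadjusted p under 0.05, against 15% of all events. Limma on logit PSI also called 0, but its call needs the same 10 points, which none of the 9 reached, so that count was fixed in advance. In 7 of the 9, the 95% interval lay inside 10 points; the 21 nt event and the 145 nt exon were the exceptions. The median size of the difference was 1.61 points over the 9 events and 1.37 points over all events. With the MAPT guide, RBFOX1N_MAPT against RBM25_MAPT also gave 0 of 9, against 1.84% of all events, none with an unadjusted p under 0.05 (18.4% of all events), and 8 of 9 intervals inside 10 points. The median size was 0.919 points for the 9 events and 1.44 points for all events.

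The same held in the other comparisons. RBM25_NT against dCasRx_NT and RBFOX1N_NT against RBM25_NT each had 0 of 9 called, against 0.731% and 1.67% of all events, and no unadjusted p under 0.05 among the 9. The guide comparisons had 0 of 9 called, against 0% of all events for RBFOX1N_MAPT with RBFOX1N_NT, 0.000996% for RBM25_MAPT with RBM25_NT and 0% for RBM25_CD46 with RBM25_NT; the interaction of effector and guide had 0 of 9, against 0%. The unadjusted p was under 0.05 for 1 of the 9 in RBM25_CD46 against RBM25_NT, the 225 nt exon described above, and for none in the others. At 9 events, a share of calls equal to the background would be less than 1 event, so the count of 0 does not set RBFOX2 apart from other genes.

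**Figure D3:**
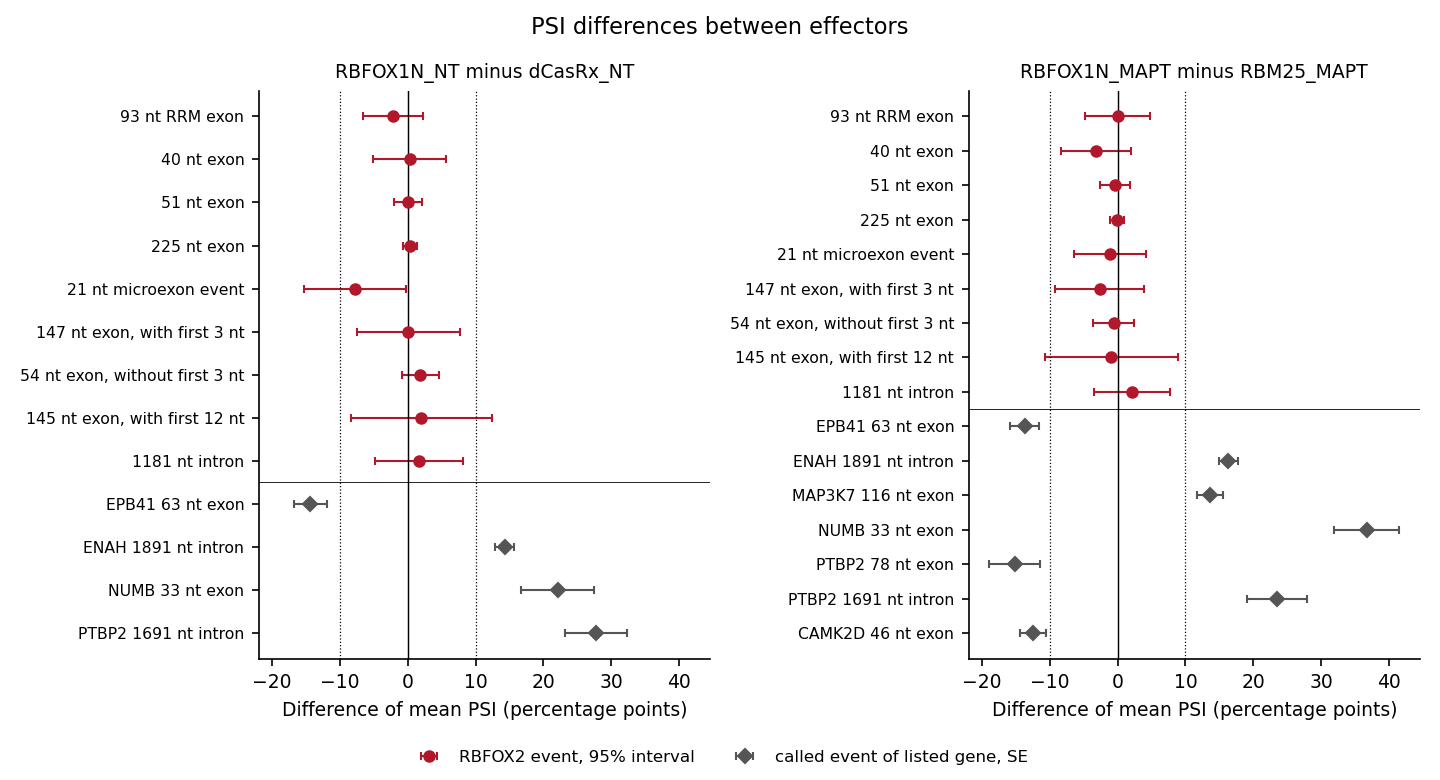
Differences of mean PSI in percentage points for RBFOX1N_NT minus dCasRx_NT (left) and RBFOX1N_MAPT minus RBM25_MAPT (right). Red points are the 9 tested RBFOX2 events with 95% intervals, grey diamonds the called events of 8 genes with exons known as RBFOX-regulated with their SE, and dotted lines mark 10 points; the RBFOX2 events lie between -7.81 and 2.11 points. Uncalled events of the 8 genes are not drawn, and a call needed 10 points.

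RBFOX3 showed lower inclusion of the RRM exon than RBFOX2. The exon had a pooled PSI of 39.4% over 127 reads in RBFOX3 (95% Wilson interval 31.3% to 48.1%) and of 94.2% over 2121 reads in RBFOX2. In single libraries RBFOX3 lay between 12.8% and 69.5%, below the lowest RBFOX2 library (90.7%) in all 12. The RBFOX3 values were 55.9% and 69.5% in RBFOX1N_NT, 12.8% and 33.7% in RBFOX1N_MAPT, 66.8% and 33.6% in RBM25_NT, 43.2% and 43.1% in RBM25_MAPT, 37.8% and 30.0% in RBM25_CD46, and 15.9% and 38.8% in dCasRx_NT. Both RBFOX1N_NT libraries lay above both dCasRx_NT libraries and both RBFOX1N_MAPT libraries. Such a separation was common: 42.3% of all tested events did not overlap between RBFOX1N_NT and dCasRx_NT, and 32.7% between RBFOX1N_MAPT and RBFOX1N_NT. Tested events rest on more reads than this exon, so these shares do not describe events as shallow as it. Each RBFOX3 value rests on 4.99 to 15 reads, with Wilson intervals 41.5 to 65.2 points wide, and no test was made.

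Most other RBFOX3 exons were near full inclusion, and 1 was nearly always skipped. The 40 nt exon was included in 100% of 62 reads (Wilson lower limit 94.2%), and 9 of the 12 RBFOX3 cassette exons with reads had a pooled PSI of at least 99%. The 40 nt exon was not always of that length, since a 3′ splice site 141 nt upstream was also used. That site had a pooled PSI of 42.3% over 39 reads, with 0 to 7 reads per library and values of 0% to 65.3%. The 176 nt exon (chr17:79102065-79102240) had a pooled PSI of 0.556% over 99 reads, and 0% to 9.17% in single libraries. The 54 nt exon at chr17:79104073-79104126 had a pooled PSI of 88.9% over 162 reads. It stood at 53.1% and 60.2% in RBFOX1N_MAPT, and at 81.9% to 100% in the 10 other libraries, from 8 to 18 reads per library. The RBFOX1N_MAPT values did not overlap the others, which was so on either side in 5.75% of all tested events. Those events had at least 20 reads in each library, so the share is not one for events with as few reads as this. The 54 nt event was singled out after its values were seen and has too few reads for the test. RBFOX1 had 8 distinct events with any read, none with more than 4 reads over all libraries, and no PSI is given for it.

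**Figure D4:**
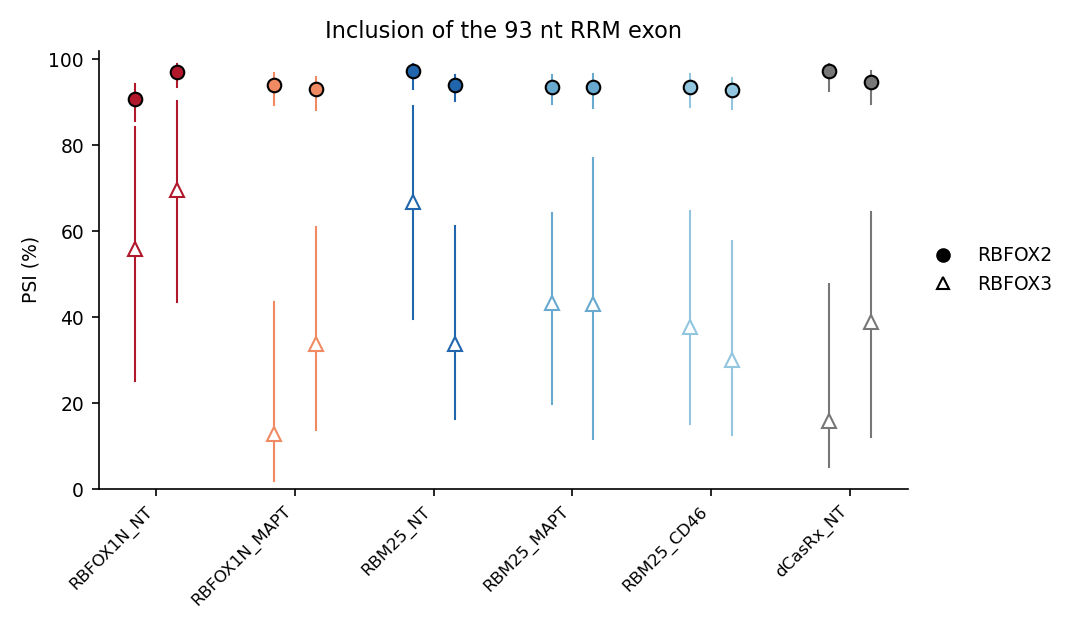
PSI in percent of the RRM exon of RBFOX2 and of RBFOX3 by library, for the 6 groups, with replicate 1 left of replicate 2; filled circles are RBFOX2, open triangles RBFOX3, and bars are 95% Wilson intervals (counting error only). RBFOX2 lies at 90.7% to 97.3% in every library and RBFOX3 at 12.8% to 69.5%, with far wider intervals.

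RBFOX proteins work in a large assembly of splicing regulators, LASR, and 6 partners in it were examined by level. None was called in RBFOX1N_NT against dCasRx_NT (unadjusted p under 0.05 for HNRNPUL2) and none in RBM25_NT against dCasRx_NT or in a guide comparison, where none had an unadjusted p under 0.05. HNRNPUL2, an RNA-binding protein of the assembly, was called lower in RBFOX1N_NT than in RBM25_NT, at 16.5 and 22.4 CPM (log2 fold change -0.44, adjusted p = 0.0474, edgeR), a call lost when any of the 4 libraries was left out. It was also lower in RBFOX1N_MAPT than in RBM25_MAPT, at 15 and 22.9 CPM (log2 fold change -0.61, adjusted p = 0.00826, edgeR), and this call was lost without RBFOX1N_MAPT replicate 2 (-0.49, adjusted p = 0.0921). The median log2 fold change of the 6 was 0.02 in RBFOX1N_NT against dCasRx_NT and -0.10 in RBFOX1N_MAPT against RBM25_MAPT, beside -0.01 for all genes in each. MATR3 had 26 to 66 counts per library, and its symbol belongs to a pair of gene identifiers; HNRNPUL2 overlaps a read-through gene, so the counts of both are uncertain. The share called, 0 or 1 of 6, lay near or below the background of 10.8%, 7.62%, 16.7% and 22.6% of all genes in the 4 effector comparisons, in the order RBFOX1N_NT against dCasRx_NT, RBM25_NT against dCasRx_NT, RBFOX1N_NT against RBM25_NT and RBFOX1N_MAPT against RBM25_MAPT.

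Of 22 other splicing regulators, 18 could be tested. KHDRBS1, also called SAM68, was called higher in RBFOX1N_NT than in dCasRx_NT, at 591 and 464 CPM (log2 fold change 0.35, adjusted p = 0.011, edgeR), and in RBFOX1N_MAPT than in RBM25_MAPT, at 582 and 486 CPM (0.26, adjusted p = 0.0251). NOVA1, a neuronal splicing regulator, was called higher in RBFOX1N_NT than in RBM25_NT, at 16.4 and 11.6 CPM (0.50, adjusted p = 0.0118, edgeR), and in RBFOX1N_MAPT than in RBM25_MAPT, at 18.2 and 10.8 CPM (0.76, adjusted p = 0.000735). NOVA2, its paralog, was called lower in RBFOX1N_MAPT than in RBM25_MAPT, at 5.62 and 7.89 CPM (-0.49, adjusted p = 0.0421, edgeR). These were all the calls: 1 of 18 higher in RBFOX1N_NT against dCasRx_NT, none in the guide comparisons (unadjusted p under 0.05 for KHDRBS3 and QKI) or in RBM25_NT against dCasRx_NT (none at an unadjusted p under 0.05), 1 higher in RBFOX1N_NT against RBM25_NT, and 2 higher and 1 lower in RBFOX1N_MAPT against RBM25_MAPT, shares below the background percentages given above wherever any was called. Only the NOVA1 call under the MAPT guide was kept when each library was left out; the others were lost without at least 1 library.

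Events of 8 genes with exons described in the literature as RBFOX-regulated were counted beside RBFOX2's own: ATP5F1C, EPB41, ENAH, FN1, MAP3K7, NUMB, PTBP2 and CAMK2D. The 8 genes had 112 tested events. These are all their tested events of any type, introns among them, and not only the exons described as regulated. In RBFOX1N_NT against dCasRx_NT, 4 events (3.57%) in 4 genes were called, 3 with more inclusion and 1 with less, against 1.14% of all tested events. None was called in RBM25_NT against dCasRx_NT (0.731% of all events), 7 (6.25%) in RBFOX1N_NT against RBM25_NT (1.67%), 7 (6.25%) in RBFOX1N_MAPT against RBM25_MAPT (1.84%), and none in the guide comparisons. The genes were chosen with earlier results of these data known, so the shares are a description.

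Among the called events of these genes, the 1891 nt intron of ENAH, a regulator of actin (chr1:225517307-225519197), had a PSI of 17.2% and 23.0% in RBFOX1N_NT and of 6.09% and 5.51% in dCasRx_NT. The difference was 14.3 points (SE 1.42, adjusted p = 6.05e-05, quasi-binomial test), and it was 16.3 points for RBFOX1N_MAPT against RBM25_MAPT (adjusted p = 8.995e-06). The 33 nt exon of NUMB, a regulator of Notch signalling (chr14:73316390-73316422), stood at 56.7% and 64.3% in RBFOX1N_MAPT and at 22.7% and 24.9% in RBM25_MAPT, a difference of 36.7 points (SE 4.82, adjusted p = 0.000482). Under the nontargeting guide it stood at 47.0% and 48.1% in RBFOX1N_NT and at 27.5% and 23.4% in dCasRx_NT (22.1 points, adjusted p = 0.0440), a call lost without any 1 of the 4 libraries. The 63 nt exon of EPB41, a protein of the membrane skeleton (chr1:29060422-29060484), was at 33.9% and 32.2% in RBFOX1N_NT and at 50.1% and 44.7% in dCasRx_NT, a difference of -14.4 points (adjusted p = 0.00311); the call was lost without dCasRx_NT replicate 1 (-11.6 points, adjusted p = 0.0933).

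The other called event of these genes in RBFOX1N_NT against dCasRx_NT was in PTBP2. The 1691 nt intron of PTBP2, a neuronal relative of the polypyrimidine tract binding protein PTBP1, was listed as retained at 18.0% and 38.4% in RBFOX1N_NT. In dCasRx_NT it was listed at 0% and 0.823% (27.8 points, adjusted p = 0.00236, quasi-binomial test). Whether reads crossed both boundaries of this intron, or of the ENAH intron, was not examined. Without RBFOX1N_NT replicate 2, the higher library, the difference was 17.6 points and the call was lost (adjusted p = 0.0589). In the same libraries the widest difference among the RBFOX2 events was the -7.81 points of the 21 nt event, which was not called. The events of the listed genes given here had to reach 10 points to be called, while the RBFOX2 events were not selected, so their sizes are not a like comparison.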

How the data were processed

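The authors deposited whole-number read counts per Ensembl gene, not normalized, and a splicing table with the percent spliced in per library beside a text field of corrected reads, per the file headers. Per the submitters' processing notes, STAR 2.7.10, edgeR and hg38 are named, with no role stated. The layout of the splicing table is that of vast-tools. With its version, the gene annotation and the use of strand in counting not given in the sources used here, genes with an antisense or overlapping partner are uncertain. Groups come from the library titles, and all 36 data columns were matched by name. The count test was that of edgeR 4.0.16 under R 4.3.3 (glmQLFit and glmQLFTest after TMM scaling, with low genes removed by filterByExpr; Benjamini-Hochberg adjustment; called at an adjusted p under 0.05), with 1 mean per group and the spread estimated from all 12 libraries (6 residual degrees of freedom). A symbol was found for 62639 of 62710 identifiers. RPKM used the union of GENCODE 29 exons. Inclusion and exclusion reads were tested with a quasi-binomial logistic model, whose Pearson dispersion was shrunk toward that of all events (9.91 prior degrees of freedom, minimum 1), and a two-sided F test. Events needed at least 20 reads in each library and 24 of the less used form; a call needed an adjusted p under 0.05 and 10 points. Intervals of PSI differences are Wald intervals, so they can disagree with the F test. Both fits were also run on simulated data. The simulated splicing changes lay only in events of intermediate PSI, so they do not measure power for most of the tested RBFOX2 events. Named genes and events follow a rule: every tested member event, the 5 genes most like RBFOX2, and called genes of the fixed lists. Of the events of the RBFOX-regulated genes, those called in RBFOX1N_NT against dCasRx_NT are described. Their events called only in other comparisons are counted, and their values are not given in the text. Members, lists and tests were chosen with earlier results of these data known. Of the lists, 2 genes are not reported here. No genome sequence was used, so the planned search of introns for motifs was not run. Alternatives were other normalizations and filters, DESeq2 1.42.0, limma 3.58.1 on logit PSI, a fit of the 2 groups compared, a replicate block, other read minimums and leaving out each library.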

Additional observations from a re-analysis of the deposited data

How the results depend on the processing

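No RBFOX event was called under any of the 63 values of the 7 comparisons. With all libraries kept, no tested RBFOX2 event differed by 10 points, so only the setting with no minimum difference could have called one. The PSI differences themselves are the same in every setting that keeps all libraries, so their signs could not change there. Outside single left-out libraries no fold change of RBFOX2 or RBFOX3 changed sign. The call of RBFOX2 in RBFOX1N_MAPT against RBM25_MAPT held under the other settings (log2 fold change -0.40 to -0.38, adjusted p = 0.000277 to 0.0298); with a library left out it ranged from -0.44 to -0.33. Leaving out single libraries turned the sign of small differences. For RBFOX1N_NT against dCasRx_NT the ranges were -0.014 to 0.048 for RBFOX2 and -0.27 to 0.17 for RBFOX3 on the log2 scale. In PSI points they were -5.39 to 1.06 for the 93 nt exon, -1.53 to 2.06 for the 40 nt exon, -2.67 to 2.90 for the 147 nt exon, -1.06 to 1.17 for the 51 nt exon and -0.33 to 0.95 for the 225 nt exon. For RBFOX1N_MAPT against RBM25_MAPT they were -0.40 to 0.41 for the 93 nt exon, -1.35 to 0.70 for the 51 nt exon, -0.34 to 0.22 for the 225 nt exon, -2.37 to 1.2 for the 54 nt exon and -4.53 to 2.69 for the 145 nt exon. RBFOX3 in RBFOX1N_MAPT against RBM25_MAPT ranged from -0.67 to -0.04.

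The replicate numbers did not pair the libraries: the correlation of their deviations over 15 pairs of groups was -0.0979 to 0.166, with 2 over 0.1. With the replicate block RBFOX2 gave -0.39 in RBFOX1N_MAPT against RBM25_MAPT (adjusted p = 0.00258) and 0.02 in RBFOX1N_NT against dCasRx_NT (adjusted p = 0.915), and it called 2614 genes in RBFOX1N_NT against dCasRx_NT, against 2217 without it. The block changed no call of an RBFOX gene or event; it removed that of the NUMB exon in RBFOX1N_NT against dCasRx_NT (adjusted p = 0.0589).

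The background moved more. Events called numbered 1147, 734, 1673 and 1845 in RBFOX1N_NT against dCasRx_NT, RBM25_NT against dCasRx_NT, RBFOX1N_NT against RBM25_NT and RBFOX1N_MAPT against RBM25_MAPT. They became 2710, 2313, 4677 and 4744 with no minimum difference, and 293, 50, 242 and 277 with limma. Limma also removed the EPB41 calls in RBFOX1N_NT against dCasRx_NT (adjusted p = 0.279) and RBFOX1N_MAPT against RBM25_MAPT (adjusted p = 0.274). Other calls were lost as well with all libraries kept. Besides the block, another such setting removed the call of the NUMB exon in RBFOX1N_NT against dCasRx_NT. In RBFOX1N_MAPT against RBM25_MAPT, at least 1 such setting removed the calls of the 116 nt exon of MAP3K7 and the 78 nt exon of PTBP2. Genes called were 1570 in RBM25_NT against dCasRx_NT, 2647 with no filter and 636 from those groups alone, and 4660 in RBFOX1N_MAPT against RBM25_MAPT, 2967 from those groups alone. With a library left out they ranged from 624 to 2972, 368 to 2048, 1280 to 2417 and 1745 to 5211, and events from 472 to 781, 237 to 459, 870 to 1251 and 908 to 1253, in the order above. In the guide comparisons other settings called 0 to 67 genes and 0 to 3 events, and leaving out a library 0 to 555 genes and 0 to 9 events. The alternatives for EPB41, ENAH, MAP3K7, NUMB, PTBP2, CAMK2D, HNRNPUL2, KHDRBS1, NOVA1 and NOVA2 were chosen after seeing the data: 23 of 63 values of the listed regulators and partners, and 15 of 97 of the listed exons and introns, lost their call, and none changed sign. The RBFOX1 and RBFOX3 events had too few reads for a test at these depths, and the causes of the shifts above were not tested.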
